A study of Mus musculus with 4 samples.

Results

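The difference between Mcu knockdown and control mouse liver that was present at both sampled times was measured for 19505 genes, all genes of the table with a single gene symbol. For each gene, the mean log2 level of the 2 knockdown arrays was set against the mean of the 2 control arrays, each side holding 1 array from 0 h and 1 from 30 h. The smaller of the 2 within-time differences was kept beside this mean, as a measure of how much of it recurred. The 0 h difference and the 30 h difference share no array, so each is the same measure on arrays that the other did not use.

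Mcu encodes the pore of the mitochondrial calcium uniporter, the channel through which calcium crosses the inner mitochondrial membrane into the matrix. Matrix calcium activates the phosphatase of pyruvate dehydrogenase and other dehydrogenases of the tricarboxylic acid (TCA) cycle, and in hepatocytes it links hormone and growth signals to energy supply. After partial hepatectomy, in which most of the liver is removed, the quiescent hepatocytes of the remnant replicate their DNA and divide.

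The study profiled 4 groups, with 1 microarray each. All mice were C57BL6J males, 10 to 12 weeks old at injection, and per the treatment protocol littermates with floxed Mcu alleles. The knockdown groups had received AAV8-TBG-Cre, an adeno-associated virus that expresses Cre recombinase, and the control groups, whose genotype label reads Wild type, AAV8-TBG-Null. The genotype label of the knockdown arrays does not match the protocol or the titles, and a knockdown value here means the array titled so. The 0 h groups are labelled as time 0 controls, and the 30 h groups were taken 30 h after 70% partial hepatectomy, itself done 5 weeks after injection; both genotypes had the same surgery. Each array holds RNA pooled from 4 animals, so the spread between animals cannot be seen, and the labels do not say whether the 0 h and 30 h pools of a genotype came from the same animals. The TBG promoter acts in hepatocytes, so other liver cells are not targeted. The description field of every sample mentions ethanol feeding, and for the knockdown 30 h sample it states 1 h, which conflicts with the time label; groups were taken from the titles.

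The 4 arrays had medians between 3.75 and 3.84 on the log2 scale. Genes were split at the median gene mean, 3.83, into 9759 bright and 9746 dim genes. The tissue label was met by its markers: all 15 measured hepatocyte markers were bright, and albumin (Alb) read 12.65, 12.65, 12.69 and 12.63 in control 0 h, control 30 h, knockdown 0 h and knockdown 30 h liver, the order used for array values throughout. Fewer cells of a type and less RNA per cell cannot be told apart in such bulk samples.

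Mcu was the gene that was lowest in the knockdown at both times. Its probe set read 4.77, 4.30, 2.83 and 2.63, so both knockdown arrays lay below both control arrays. The difference was -1.94 at 0 h (3.84-fold lower) and -1.67 at 30 h (3.18-fold lower), with a mean of -1.80 ± 0.19 (SD, n = 2 times). It ranked first among all 19505 genes both by the mean difference and by the smaller of the within-time differences. No source used here says where this probe set lies relative to the deleted part of the gene. The knockdown readings are dim, which understates a fold.

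The genome-wide picture was that the knockdown differences at 0 h and at 30 h bore little relation to each other. A gene is said to recur when its difference has the same sign at both times and is at least 1.5-fold (0.58 on the log2 scale) at each. By this rule 195 genes recurred as higher in the knockdown (1.0%) and 146 as lower (0.749%), 341 in all. A further 380 genes (1.95%) passed 1.5-fold at both times in opposite directions, 175 of them higher at 0 h and lower at 30 h and 205 the reverse. The numbers that recurred and that switched sign were thus close, and their order depended on the scaling: 356 recurred and 366 switched sign after median centring, 352 and 326 after quantile normalization, and 342 and 323 after cyclic loess. The split between higher and lower among the recurring genes turned as well, with 133 and 223, 152 and 200, and 149 and 193 in these settings. The 341 were 11.5% of the 2977 genes past 1.5-fold at 0 h and 8.91% of the 3829 past it at 30 h.

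Across genes, which are not independent replicates, the 0 h and 30 h differences had a Pearson correlation of -0.03 and a Spearman correlation of -0.04. Of all genes, 47.2% had the same sign at both times and 50.8% opposite signs. At 2-fold, 9 genes recurred as higher (0.0461%) and 11 as lower (0.0564%), against 18 with opposite signs (0.0923%). Among bright genes 64 recurred as higher (0.656%) and 70 as lower (0.717%), against 161 with opposite signs (1.65%), of which 116 were higher at 0 h and lower at 30 h. At 2-fold, 3 bright genes recurred as higher (0.0307%) and 2 as lower (0.0205%), against 8 with opposite signs (0.082%). The bright genes had a median difference of 0.06 at 0 h and -0.11 at 30 h, and the dim genes -0.04 and 0.11, so the sign of the median differed between bright and dim genes; the part of brightness in the counts was not tested.

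**Figure D1:**
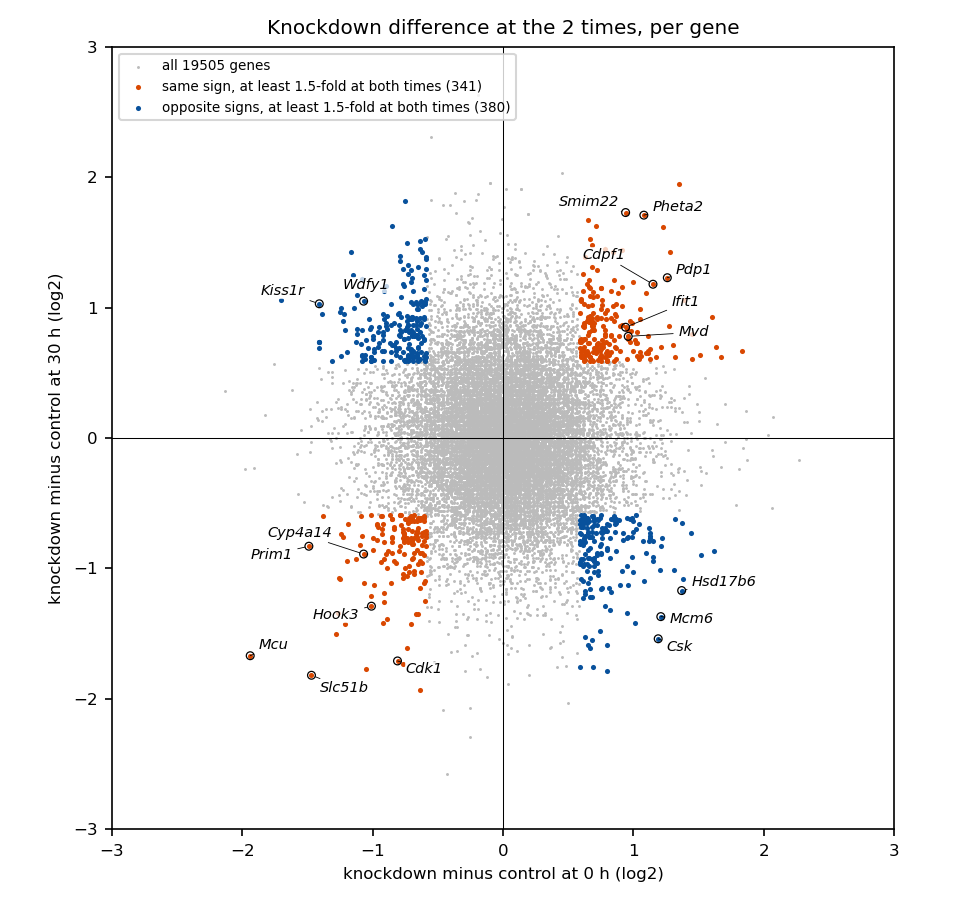
Each point is 1 gene, with the knockdown minus control difference at 0 h on the x axis and at 30 h on the y axis, both in log2 units and each from 1 pair of arrays. Orange points (341 genes) passed 1.5-fold at both times with the same sign and blue points (380 genes) with opposite signs; the cloud has no slope, and Mcu lies at the lower left edge.

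The same measure was taken for the other factor of the design, time. The difference between 30 h and 0 h was at least 1.5-fold in the same direction in both genotypes for 959 genes and in opposite directions for 307, and at 2-fold for 245 against 18. Its correlation across genes between the genotypes, which share no array, was 0.28, and 0.46 among bright genes. The scale and the arrays were the same, so differences shared between array pairs were visible for time where the knockdown gave 341 against 380.

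**Figure D2:**
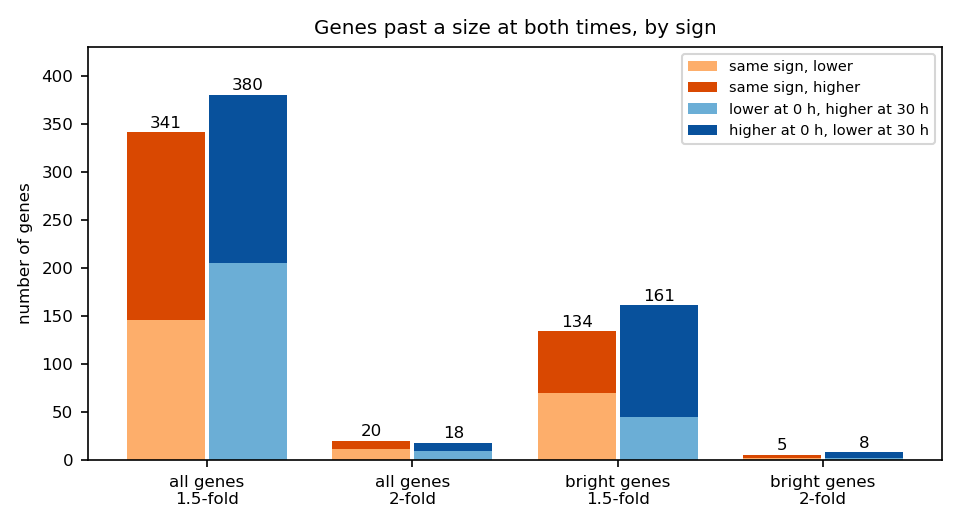
Bars count the genes past 1.5-fold or 2-fold at both times, for all 19505 genes and for the 9759 bright genes; orange bars have the same sign at both times and blue bars opposite signs. The paired bars are of similar height in each set, 341 and 380, 20 and 18, 134 and 161, and 5 and 8.

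The only test these arrays allow of the shared difference is an additive limma fit of genotype and time. In it the change of the knockdown difference between the times gives the error, with 1 residual degree of freedom per gene. That error is drawn toward a trend with mean level over all genes, which weighs more (13.9 prior degrees of freedom). No gene passed an adjusted p of 0.05 (0.0%), and 814 genes (4.17%) had an unadjusted p under 0.05 by limma, 444 higher and 370 lower in the knockdown. The lowest adjusted p by limma was 0.738, which Mcu (unadjusted p 5.56e-05) and the bile acid transporter gene Slc51b (unadjusted p 0.000114) shared. With cyclic loess normalization, limma called 4 genes at an adjusted p of 0.0297, Mcu, Cyp4a14, Scd1 and the predicted gene Gm20852. The sizes below are therefore descriptions of these arrays, and no gene named is called changed.

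Among bright genes, the 12 highest by the smaller difference had both knockdown arrays above both control arrays. The same held for 91.8% of the 195 genes that recurred as higher and for 15.2% of all genes. A choice by the difference at both times favours such separation, so it is no separate result about the 12 genes. Cdpf1, which encodes a small cysteine-rich protein, led the 12 with 3.75, 4.02, 4.90 and 5.20, a difference of 1.15 at 0 h and 1.18 at 30 h. Pheta2, whose product binds the endosomal phosphatase OCRL, read 3.12, 3.57, 4.20 and 5.28. Smim22, a small membrane protein gene, read 4.12, 3.69, 5.06 and 5.42. These genes differed by 1.39 ± 0.45 and 1.33 ± 0.56 (SD, n = 2 times), and both differed by more at 30 h.

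Next came Cxcl13 and Apol9b. Cxcl13, the chemokine that attracts B cells, read 3.86, 3.12, 5.13 and 3.98 and differed by 1.27 at 0 h and 0.86 at 30 h. Apol9b, an interferon-inducible member of the apolipoprotein L family, read 5.11, 4.41, 5.96 and 5.31. Both were lower at 30 h than at 0 h within each genotype, while the knockdown offset was of like size at both times. Vcan, the matrix proteoglycan versican, read 4.13, 4.35, 4.88 and 5.34.

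Cacna1i encodes the pore subunit of a low-voltage-activated calcium channel and read 3.41, 3.45, 4.24 and 4.24. Cbarp, whose product binds the beta subunits of voltage-gated calcium channels, read 5.34, 5.54, 6.09 and 6.46. The list of calcium handling at the endoplasmic reticulum and plasma membrane as a whole did not share a direction: of 39 measured genes 8 were higher and 7 lower at both times, against 24.3% and 23.0% of all genes, and none recurred. The sarcoplasmic and endoplasmic calcium pump gene Atp2a2 differed by -0.56 and -0.26.

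The rest of the 12 were the kinase gene Mast4 (0.80 and 0.98 at 0 h and 30 h), the mevalonate pathway gene Mvd (0.96 and 0.78), the membrane protein gene Tmem233 (0.76 and 1.06) and Eepd1 (0.85 and 0.75), whose product acts at stalled replication forks. Each of them was below 2-fold at 1 or both times.

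Slc51b was the lowest bright gene. It encodes the beta subunit of the basolateral transporter that exports bile acids from cells, and read 4.21, 5.82, 2.74 and 4.00. Its difference was -1.47 at 0 h and -1.82 at 30 h, with a mean of -1.64 ± 0.25 (SD, n = 2 times), next to Mcu among all genes. It was higher at 30 h than at 0 h in both genotypes, and both knockdown arrays still lay below both control arrays.

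In the bile acid list of 24 measured genes, Cyp8b1 recurred in the other direction. This sterol 12-alpha-hydroxylase, which sets the share of cholic acid among bile acids, read 6.84, 3.31, 7.81 and 4.05, a difference of 0.97 at 0 h and 0.74 at 30 h. Its level differed by far more between 0 h and 30 h than between genotypes, so the genotypes overlap. The list's medians were 0.14 at 0 h and -0.20 at 30 h, and 6 of its genes were higher and 4 lower at both times (near the 24.3% and 23.0% of all genes).

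Of the 12 lowest bright genes, 8 (66.7%) had both knockdown arrays below both control arrays. The same held for 83.6% of the 146 genes that recurred as lower and for 13.1% of all genes. Here too the choice by the difference favours such separation, so the count is no separate result about these genes. Hook3, a dynein adaptor gene, read 5.69, 5.58, 4.68 and 4.29. Manea, a mannosidase of the Golgi, read 6.41, 6.24, 5.42 and 5.11. Ermp1, a metallopeptidase of the endoplasmic reticulum, read 5.09, 5.40, 3.89 and 4.46. In each of these the control arrays lay close together and apart from the knockdown arrays. Angel2 (-0.91 and -1.26), the basement membrane gene Ntn4 (-0.89 and -1.0), Dcakd (-0.88 and -0.87) and Tti1, a cofactor for the maturation of kinases such as mTOR and ATM (-1.10 and -0.82), also had both knockdown arrays below both control arrays.

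The other 4 of the 12 differed between the times as well, so their groups met or overlapped. Cyp4a14, a fatty acid omega-hydroxylase and target of PPAR-alpha, read 8.35, 9.24, 7.28 and 8.35. Prim1, the catalytic subunit of DNA primase, read 5.14, 6.36, 3.65 and 5.53, and Rrm1, the large subunit of ribonucleotide reductase, 4.49, 7.51, 3.72 and 6.44. Both replication genes were higher at 30 h in either genotype. Ing1, a chromatin reader gene, read 5.50, 4.38, 4.53 and 3.60.

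**Figure D3:**
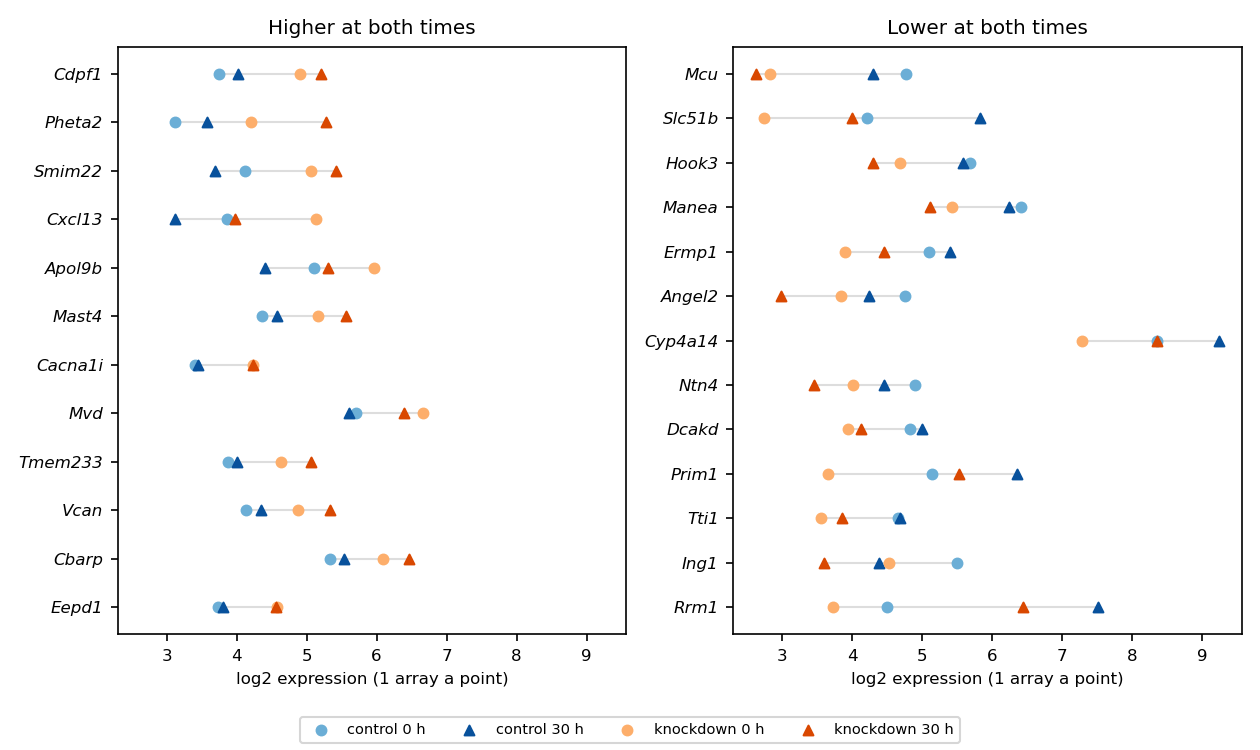
Log2 level on each of the 4 arrays (circles 0 h, triangles 30 h; blue control, orange knockdown) for the 12 highest bright genes by the smaller difference, left, and for Mcu and the 12 lowest, right. Levels of different genes are not comparable; within each row on the left the orange points lie to the right of the blue ones, and on the right Slc51b lies next to Mcu while the points of Cyp4a14 from control 0 h and knockdown 30 h coincide at 8.35.

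Of the 20 genes that recurred at 2-fold, most were dim, where readings are noisier. These were taken after their values were seen. Pdp1, the catalytic subunit of a pyruvate dehydrogenase phosphatase that calcium stimulates, read 2.18, 2.74, 3.44 and 3.97, a difference of 1.26 at 0 h and 1.23 at 30 h. The neuronal enolase gene Eno2 differed by 1.28 and 1.43, the placental syncytin gene Synb by 1.23 and 1.62, the proton pump subunit gene Atp6v0a4 by 1.39 and 1.06, and Dand5 by 1.00 and 1.20. On the lower side Spic, a transcription factor of red pulp macrophages, differed by -1.28 and -1.50, the spindle gene Fam83d by -1.27 and -1.34, the kinetochore gene Dsn1 by -1.01 and -1.21, and the cadherin gene Cdh6 by -1.07 and -1.11. The remaining genes were Mbtd1, Med31, Rbsn and Poglut2 on the lower side and the predicted genes Gm20852 and Gm5136 on the higher side.

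Just inside the 1.5-fold size lay Fbxw7 (smaller difference -0.59) and H2ac4 (-0.59) on the lower side and Klk10 (0.59) and Prss57 (0.59) on the higher side. Just outside it lay Papolb (-0.58), Lyrm2 (-0.58), Ehd2 (0.58) and Slurp1 (0.58). The size is thus a line through a continuous spread of values.

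Position on the chromosome was looked at for Mcu after its values were seen. Per the treatment protocol both groups had floxed Mcu alleles. The sample labels described above depart from that protocol, and whether alleles around the locus differed between the groups was not tested. The counts are given as values, and a cause was not tested. Of the 25 measured genes on each side of Mcu in RefSeq order on chromosome 10, none recurred in either direction and 3 passed 1.5-fold at both times with opposite signs. Against 1.0% and 0.749% of all genes, a count of 0 among 50 is near the background. The 3 of opposite sign are a small count but a larger share than the 1.95% over all genes. On the whole chromosome, Mcu left out, 16 of 918 genes had opposite signs at this size. The smaller differences of these 50 genes lay between -0.38 and 0.42, and their median mean difference was -0.04.

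No other gene of mitochondrial calcium transport came near the size of the Mcu difference. Of 19 measured genes of this list 2 were higher and 7 lower at both times (10.5% and 36.8%, against 24.3% and 23.0% of all genes), and only Mcu and Spg7 recurred, both as lower, against 0.749% of all genes. Spg7, which encodes paraplegin, a subunit of an inner membrane protease, is dim and read 3.87, 3.35, 2.90 and 2.68. The gatekeeper gene Micu2 read 5.53, 6.04, 5.81 and 5.73 and differed by 0.28 at 0 h and -0.31 at 30 h. Smdt1, which encodes the essential regulator EMRE, read 8.74, 9.05, 9.06 and 9.09, a mean difference of 0.18 ± 0.20 (SD, n = 2 times).

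The remaining members were spread on both sides of 0. The calcium-regulated carriers had opposite signs, with Slc25a23 at 0.18 and -0.53, Slc25a24 at 0.32 and -0.83 and Slc25a25 at 0.63 and -0.21. The sodium-calcium exchanger gene Slc8b1 differed by -0.19 and -0.24, Letm1 by -0.07 and 0.15, and the assembly factor gene Maip1 by -0.25 and -0.05. Tmem65 differed by -0.17 and -0.37, and Vdac2, an outer membrane channel gene, by -0.13 and -0.35. Micu3 was dim on all arrays (0.20 and 0.17).

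In the list of calcium-sensitive dehydrogenases and the TCA cycle, 30 of 33 measured genes were bright. At both times 13 were lower and 2 higher (39.4% and 6.06%, against 25.3% and 20.9% of bright genes). The lower and higher counts were 13 and 2 after median centring, 15 and 6 after quantile normalization and 14 and 6 after cyclic loess. Sizes were small: the list's medians were 0.06 at 0 h and -0.23 at 30 h. Pdp1 alone recurred. The related phosphatase gene Pdp2 read 5.28, 5.27, 5.27 and 5.26, the flattest of these genes. Of the kinases that oppose these phosphatases, Pdk1 differed by -0.22 and -0.27, Pdk2 by -0.07 and -0.50 and Pdk4 by -0.45 and -0.21. The aspartate-glutamate carrier gene Slc25a13, whose product senses calcium, read 7.36, 7.40, 6.97 and 6.86 and differed by -0.39 and -0.54.

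The respiratory chain and ATP synthase list of 70 measured genes had medians of 0.09 at 0 h and -0.12 at 30 h, with 16 genes higher and 14 lower at both times (near the 20.9% and 25.3% of bright genes) and none recurring. Ndufb8, a subunit of complex I, had the largest smaller difference (-0.55 and -0.46), followed by the ATP synthase gene Atp5e (-0.24 and -0.42). Among 58 mitochondrial ribosomal protein genes Mrpl11 recurred as lower, with 6.31, 6.26, 5.59 and 5.23. Polrmt, the RNA polymerase of mitochondria, recurred as higher, with 3.34, 3.35, 4.64 and 4.06.

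Genes of mitosis were the list with the lowest mean difference. Of 46 measured genes 26 were lower and 2 higher at both times (56.5% and 4.35%, against 23.0% and 24.3% of all genes), and 7 recurred as lower. The median difference was -0.28 at 0 h and -0.73 at 30 h, against 0.01 and 0.00 over all genes. The 20 bright members had medians of -0.19 and -0.70.

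The mitotic kinase gene Cdk1 read 2.75, 5.49, 1.94 and 3.78, a difference of -0.81 at 0 h and -1.71 at 30 h. Mki67, the proliferation marker, read 3.91, 6.18, 3.20 and 4.75, and Ube2c, which loads ubiquitin for the anaphase-promoting complex, 4.19, 6.77, 3.59 and 5.52. The activator of that complex, Cdc20, read 2.59, 4.10, 1.92 and 2.75. All 4 were higher at 30 h than at 0 h in both genotypes and lower in the knockdown at each time.

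The kinase gene Nek2 (-0.89 and -1.39) and the kinesin genes Kif2c (-0.91 and -1.19) and Kif22 (-1.0 and -0.77) also recurred. At 0 h most of these readings were dim; Cdk1 in knockdown liver at 0 h lay at percentile 8.58 of its array. Members that differed at 30 h alone included Bub1 (0.20 and -1.82), Kif20b (0.07 and -1.53) and Nuf2 (0.06 and -1.44). Prc1, a regulator of the spindle midzone, had opposite signs, 1.31 and -1.01.

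The promoters of mitotic genes often hold a cell cycle homology region, TTTGAA, bound by the repressor complex of quiescent cells. Stretches of some recurring members that hold these letters are shown. They come from RefSeq promoter windows of build GRCm38.p6, from 250 bases before to 50 after the start, printed 5′ to 3′ on the gene's strand with matches on either strand in capitals. They were chosen after the values were seen: Cdc20 at chr4:118437344-118437401 (minus), Ube2c at chr2:164769860-164769928 (plus), Kif2c at chr4:117178830-117178915 (minus) and Cdk1 at chr10:69352913-69353023 (minus).
Cdc20: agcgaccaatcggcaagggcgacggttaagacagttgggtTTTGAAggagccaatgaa
Ube2c: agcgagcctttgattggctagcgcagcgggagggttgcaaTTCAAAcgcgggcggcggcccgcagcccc
Kif2c: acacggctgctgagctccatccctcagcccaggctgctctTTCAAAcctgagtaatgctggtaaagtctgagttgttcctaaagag
Cdk1: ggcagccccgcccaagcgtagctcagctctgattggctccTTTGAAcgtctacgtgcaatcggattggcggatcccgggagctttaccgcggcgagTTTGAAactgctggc
In Ube2c and Kif2c the match is on the other strand, where TTCAAA reads TTTGAA. Of 38 mitosis genes with such a window 29 held the letters (76.3%), against 17.8% of 15691 measured genes. Among the recurring members, Nek2 had a window without the letters, and Mki67 and Kif22 held them but are not printed. The mean difference had a median of -0.56 over the 29 and -0.32 over the other 9 mitosis genes, while over all genes with and without the letters it was 0.01 and 0.00. CCAAT, the box bound by NF-Y, was in 28 of the 38 (73.7%) against 42.2% of all, and the median was -0.52 with and without it. A match is a description of the letters and not of binding.

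The lists of earlier cell cycle steps did not share a sign. DNA replication genes had a median of 0.13 at 0 h and -0.80 at 30 h, with 13 of 44 measured genes lower and 3 higher at both times (29.5% and 6.82%, against 23.0% and 24.3% of all genes). Rfc3 (-1.0 and -0.86), a subunit of the clamp loader, Prim1, the other primase subunit gene Prim2 (-0.59 and -0.83) and the chromatin assembly gene Chaf1b (-0.65 and -1.35) recurred as lower. The helicase gene Mcm6 read 2.67, 7.60, 3.88 and 6.23, so it was higher in the knockdown at 0 h and lower at 30 h.

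Nucleotide and folate supply had medians of 0.04 and -0.41, with 14 of 39 genes lower and 3 higher at both times (35.9% and 7.69%, against the same shares). Rrm1 and the guanine nucleotide gene Impdh1 (-0.66 and -0.86, dim) recurred. The G1 to S regulators had medians of 0.12 and -0.39 and no recurring gene; Tfdp1, the dimer partner of E2F factors, differed by -0.34 and -1.02. Among growth factors and receptors of regeneration, 16 of 43 genes were higher and 11 lower at both times (37.2% and 25.6%, against 24.3% and 23.0% of all genes). These counts were 11 and 12 after median centring, 17 and 10 after quantile normalization and 17 and 9 after cyclic loess. The EGF receptor ligand gene Ereg (0.78 and 0.80, dim) recurred as higher and the Hippo pathway effector gene Yap1, with 5.46, 5.30, 4.50 and 4.62, as lower.

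Cholesterol synthesis and uptake was the pathway list with the highest mean difference. All 22 measured genes were bright, 13 were higher and 2 lower at both times (59.1% and 9.09%, against 20.9% and 25.3% of bright genes), and the medians were 0.21 at 0 h and 0.30 at 30 h. The single recurring gene was Mvd, mevalonate diphosphate decarboxylase, with 5.70, 5.61, 6.66 and 6.39. The others differed by less than 1.5-fold at 1 or both times.

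Hmgcs1, which makes HMG-CoA at the entry of the pathway, read 9.82, 9.05, 10.13 and 10.14. Sqle, squalene epoxidase, read 6.17, 6.16, 6.47 and 7.12. Both differed by about 0.3 at 0 h (0.31 and 0.30) and by more at 30 h (1.09 and 0.96). Insig1, the sterol-regulated retention factor of SREBP, read 7.99, 7.39, 8.45 and 7.99, and the late enzyme gene Sc5d 10.56, 9.60, 10.96 and 9.97. The members that were lower at both times were Pmvk (-0.35 and -0.11) and the cholesterol exporter gene Abca1 (-0.04 and -0.23), which is not a synthesis gene.

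Hmgcs1 was the only one of 18 cholesterol genes with a promoter window to hold TCACNCCAC, letters of a sterol response element, searched on both strands (5.56%, against 1.43% of all measured genes). The stretch, chr13:119690174-119690262 (plus) of GRCm38.p6, is shown with the match in capitals.
Hmgcs1: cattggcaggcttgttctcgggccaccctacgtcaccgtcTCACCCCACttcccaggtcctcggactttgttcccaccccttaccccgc
Variants of the element with other letters were not searched.

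Of the lipid genes outside this list, the desaturase gene Scd1 recurred as higher, with 9.85, 8.22, 10.54 and 9.08. Its list, fatty acid and triglyceride synthesis, had 8 of 31 genes higher and 5 lower at both times (25.8% and 16.1%, against 24.3% and 23.0% of all genes). These counts depended on the scaling. They were 7 and 5 after median centring, 13 and 3 after quantile normalization and 14 and 3 after cyclic loess. Cyp4a14 was the only recurring member of the fatty acid oxidation list, of which 30 of 31 genes were bright. In it 7 genes were lower and 2 higher at both times (22.6% and 6.45%, against 25.3% and 20.9% of bright genes). The lower and higher counts were 10 and 1 after median centring, 12 and 5 after quantile normalization and 10 and 8 after cyclic loess. Rbp2, a retinol-binding protein gene, recurred as higher from a dim level (0.80 and 0.67).

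Interferon-stimulated genes were mostly higher, though chiefly at 0 h. Of 41 measured genes 18 were higher and 4 lower at both times (43.9% and 9.76%, against 24.3% and 23.0% of all genes), with medians of 0.44 at 0 h and 0.04 at 30 h. After median centring, quantile normalization and cyclic loess the 30 h median was -0.05, -0.03 and -0.01, so its sign at 30 h depended on the scaling. Ifit1 alone recurred, with 2.10, 2.27, 3.04 and 3.12. Isg15, a ubiquitin-like modifier gene, read 2.56, 2.97, 3.80 and 3.48, the guanylate-binding protein gene Gbp4 4.10, 4.31, 5.27 and 4.81, and Oasl2 3.80, 3.72, 4.33 and 4.62. Irf7, the transcription factor of the response, differed by 1.10 at 0 h and 0.18 at 30 h.

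The interferon-stimulated response element is a repeat of TTTC, and the stretches of Ifit1 at chr19:34640745-34640853 (plus) and Isg15 at chr4:156200835-156200936 (minus) show it in capitals, from the same RefSeq windows.
Ifit1: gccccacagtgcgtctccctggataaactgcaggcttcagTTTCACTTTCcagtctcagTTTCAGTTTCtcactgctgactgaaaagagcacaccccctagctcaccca
Isg15: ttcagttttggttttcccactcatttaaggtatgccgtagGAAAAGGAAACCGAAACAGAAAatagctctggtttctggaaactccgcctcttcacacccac
Isg15 holds 3 overlapping matches, all on the other strand. The letters TTTC, any 2 bases and TTTC again, searched on both strands, were in 19 of 31 interferon-stimulated genes with a window (61.3%) and in 3.94% of all measured genes. The mean difference had a median of 0.27 over the 19 and 0.08 over the other 12.

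Antigen presentation was the other immune list on the higher side. Of 16 measured genes, 14 of them bright, 10 were higher and none lower at both times (62.5%, against 24.3% of all genes and 20.9% of bright genes). The medians were 0.28 and 0.14, and no gene recurred. The higher and lower counts were 9 and 1 after median centring, 9 and 1 after quantile normalization and 11 and 1 after cyclic loess. After median centring the 30 h median was 0.055. The class II gene H2-Aa read 5.41, 4.96, 6.30 and 5.41, the immunoproteasome subunit gene Psmb8, which the interferon list also holds, 5.56, 5.69, 6.18 and 6.11, and the peptide loading factor gene Tapbp 7.51, 7.77, 8.04 and 8.07.

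Markers of Kupffer cells were also higher in the knockdown at 0 h, but lower at 30 h. The summed linear level of the 13 Kupffer cell markers, all bright, was 546 and 729 in control and knockdown liver at 0 h and 826 and 686 at 30 h. That of the 12 monocyte and dendritic cell markers, 10 of them dim, was 233 and 267 at 0 h and 218 and 196 at 30 h. The 9 B and plasma cell markers, all dim, summed to 63.6, 57.4, 67.1 and 66.6, and among them Cd79a recurred as higher (0.76 and 0.75). The 17 T and NK cell markers, 16 of them dim, summed to 142 and 129 at 0 h and 117 and 125 at 30 h. The part of these cells in the immune lists was not tested.

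Other cell types gave 2 recurring markers. Pecam1, an adhesion molecule of endothelium, read 5.01, 4.56, 4.07 and 3.96 and was lower at both times, while 5 of 17 sinusoidal endothelial markers were higher and 3 lower at both times (29.4% and 17.6%). Ngfr, a receptor gene of stellate cells, read 4.75, 4.23, 5.37 and 4.93, and 8 of 16 stellate cell markers were higher and 2 lower at both times, against 24.3% and 23.0% of all genes. For stellate cell markers the higher and lower counts were 4 and 2 after median centring, 6 and 1 after quantile normalization and 6 and 1 after cyclic loess. Hepatocyte markers had medians of 0.14 and 0.02, with 5 of 15 higher at both times and 1 lower. The highest of these by the smaller difference was Serpina1c (0.14 and 0.27) and the lower one Hnf4a, the hepatocyte transcription factor gene (-0.29 and -0.22). For hepatocyte markers these counts were 2 and 3 after median centring, 7 and 3 after quantile normalization and 4 and 3 after cyclic loess.

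**Figure D4:**
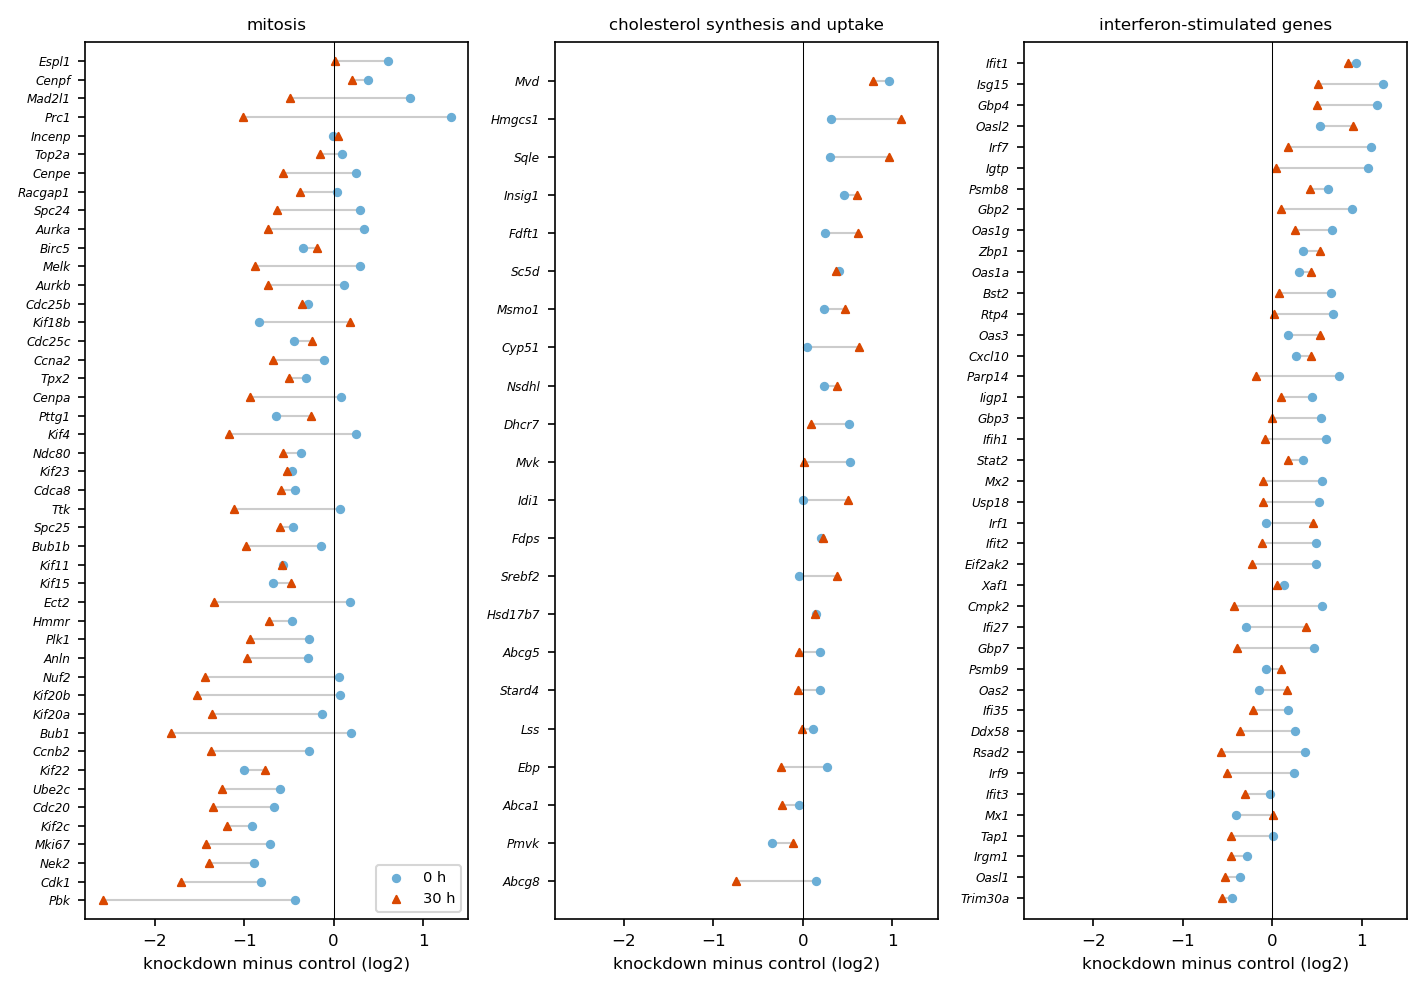
Knockdown minus control in log2 units at 0 h (blue circles) and 30 h (orange triangles) for each measured member of 3 lists, ordered by mean difference. In mitosis 26 of 46 genes have both points left of 0, in cholesterol synthesis 13 of 22 and among interferon-stimulated genes 18 of 41 have both points right of 0, and the interferon genes lie farther right at 0 h than at 30 h.

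Over all 51 lists, 41 of pathways and 10 of cell types, a shared direction was uncommon. The medians were above 0 at both times in 7 lists and below 0 at both times in 4, while 33 were above 0 at 0 h and below 0 at 30 h and 6 the reverse (3, 8, 36 and 3 lists after median centring, 10, 12, 17 and 10 after quantile normalization, and 9, 8, 23 and 11 after cyclic loess); calcium handling at the endoplasmic reticulum and plasma membrane had 0.03 and 0.00. The sign of a small list median therefore depended on the scaling. The median of the mean difference lay within 0.1 of 0 for 38 lists, and 31 lists had no recurring member. Bright genes as a whole had medians of 0.06 and -0.11, the same order of signs as the 33 lists.

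Stress lists were among those without a recurring gene, and their counts at both times stand against 24.3% higher and 23.0% lower over all genes. The heat shock genes had medians of -0.09 and -0.29, with 7 of 18 lower and 3 higher at both times; Hsph1 read 5.69, 5.83, 5.20 and 5.30. The ER chaperone list had 8 genes higher and 11 lower of 26, with Edem1 at -0.51 and -0.29 and Atf6b at 0.41 and 0.51. The integrated stress response list had 7 higher and 7 lower of 32, with medians of 0.08 and -0.03, and Ddit4 differed by 0.51 and 0.42.

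**Figure D5:**
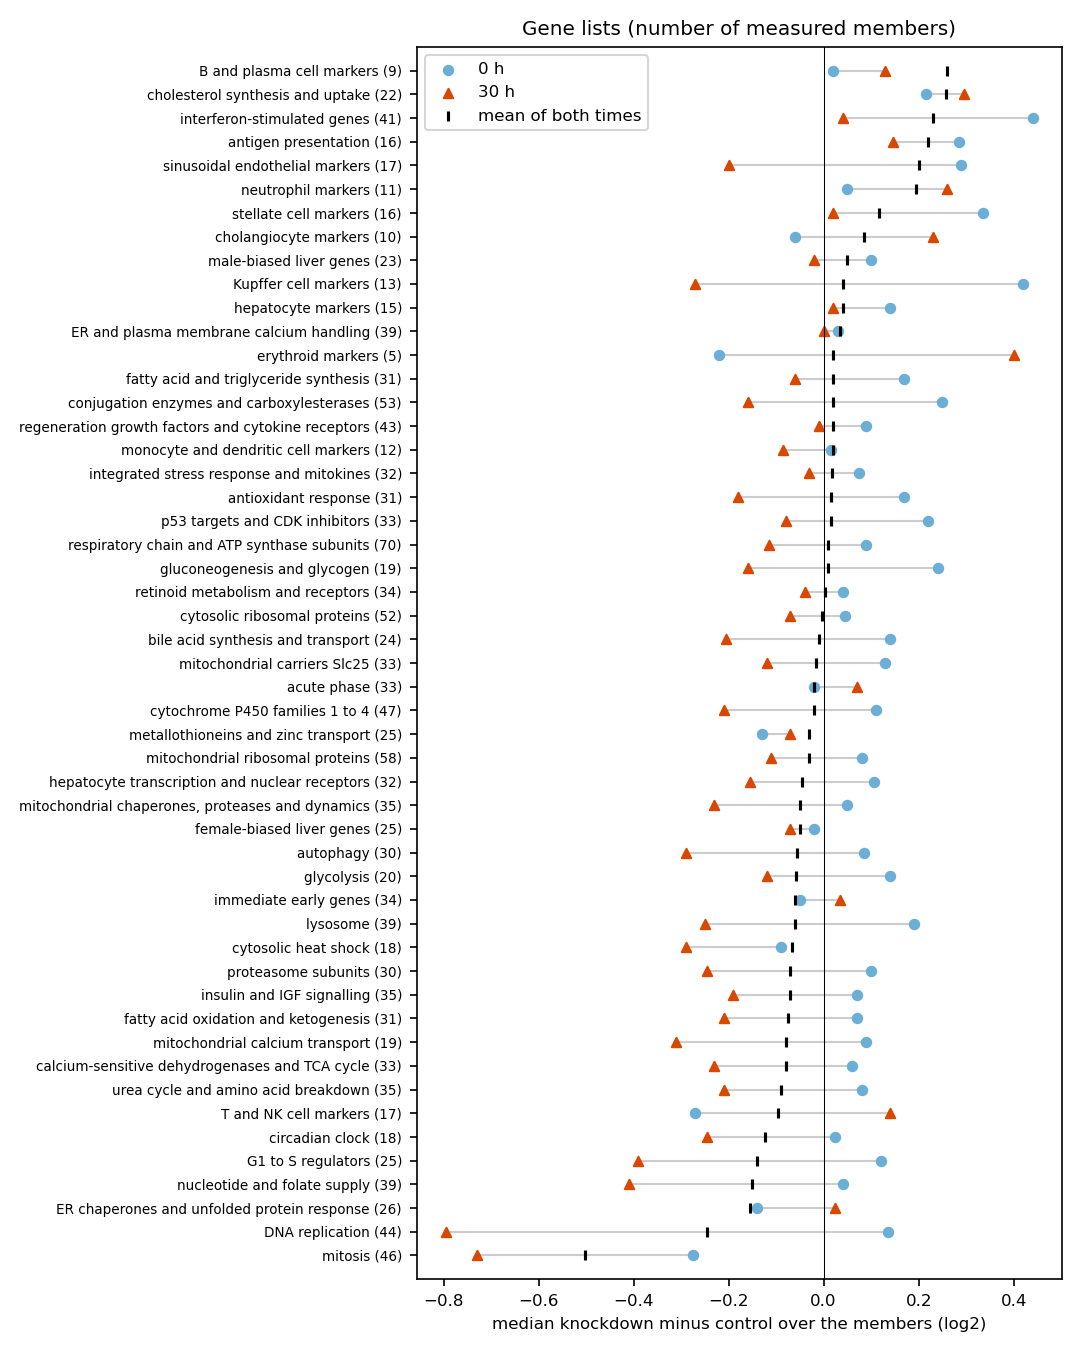
Median knockdown minus control difference (log2) over the measured members of each list at 0 h (circles), 30 h (triangles) and for the mean of both times (bars), ordered by the last; numbers in brackets are measured members. Mitosis is lowest with -0.28 and -0.73, cholesterol synthesis lies right of 0 at both times with 0.21 and 0.30, and for 33 lists the line runs from above 0 at 0 h to below 0 at 30 h, a number that was 17 after quantile normalization and 23 after cyclic loess.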

How the data were processed

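The authors deposited log2 values, 1 per probe set and array. Per the submitters' processing notes they came from RMA in Affymetrix Expression Console; no source used here gives its version, its settings or a genome build. RMA forces the arrays to like distributions, which hides any shift common to all genes. Values carry 2 decimals. Of 22206 probe sets 19572 had 1 symbol and 2634 none in the platform annotation; symbols were updated to RefSeq of GRCm38.p6. The 55 genes with several probe sets took the one with the highest mean. No depth applies; the number of arrays limits precision.

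Samples were grouped by title. Differences were taken in Python 3.11.15 (pandas 2.3.3, numpy 2.4.6). The additive test was limma 3.58.1 in R 4.3.3 (lmFit, eBayes with trend, 2-sided, Benjamini-Hochberg over 19505 genes), tested on simulated data first. Its p-values set the difference against an error moderated over all genes, with 1 residual and 13.9 prior degrees of freedom. They do not measure a spread between animals. The 51 lists held 1573 genes, 1436 of them measured.

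The members, lists and rules were chosen with earlier results of these data known. Named genes were the mitochondrial calcium transport list, the 12 highest and 12 lowest bright genes by the smaller difference (predicted genes, small RNAs and receptor families left out), up to 4 recurring members of a list in each direction or, with none, up to 2 with the largest smaller difference, and 3 genes in each order of opposite signs; other members of a described list were added after their values were seen. Alternatives were brightness filters, fold sizes, averaged probe sets, 3 normalizations, other limma settings and each time alone. An item in the labels is not reported here.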

Additional observations from a re-analysis of the deposited data

Results flagged for a closer look

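The bright genes with the largest differences of opposite sign are given as values; with 1 array a group, the difference between the times was not tested. Mcm6, a subunit of the replicative helicase, differed by 1.21 at 0 h and -1.37 at 30 h, Csk, a kinase that restrains Src, by 1.19 and -1.54, and Hsd17b6, a steroid dehydrogenase gene, by 1.37 and -1.17. Wdfy1 differed by -1.07 and 1.05, the receptor gene Kiss1r by -1.41 and 1.03, and Sac3d1 by -0.91 and 0.91. These sizes are like those of the highest and lowest genes that recurred.

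Of 10 cell type lists, 6 had medians of opposite sign at the times, again untested, and 3 of these were at least 0.2 from 0 at both. Kupffer cell markers had a median of 0.42 at 0 h and -0.27 at 30 h, sinusoidal endothelial markers 0.29 and -0.20, and the 5 measured erythroid markers -0.22 and 0.40.

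The 2634 probe sets without a gene name lie outside the comparison. Of these, 69 recurred at 1.5-fold as higher and 21 as lower, and 64 passed it with opposite signs. Recurring ones were thus 3.42% and opposite ones 2.43%. Of the 19505 named genes, 1.0% recurred as higher, 0.749% as lower and 1.95% had opposite signs. Recurring ones thus outnumbered opposite ones among the unnamed probe sets but not among the named genes as deposited.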

How the results depend on the processing

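The knockdown difference of Mcu kept its direction at 0 h alone (-1.94), at 30 h alone (-1.67) and after each of the 3 normalizations, where it stayed the lowest of all genes by the smaller difference. Recurring counts followed the filter and the size. They were 64 higher, 70 lower and 161 of opposite sign for bright genes; 8, 16 and 38 above percentile 75 of mean level; 9, 11 and 18 at 2-fold; and 951, 818 and 1997 at the looser size of 0.32 on the log2 scale. With a demand on the mean difference alone, 701 were higher and 554 lower. The split of 195 higher and 146 lower turned with the scaling: it was 133 and 223 after median centring, 152 and 200 after quantile normalization and 149 and 193 after cyclic loess, against 366, 326 and 323 of opposite sign. Of the 341 recurring genes 279, 264 and 258 were kept in these settings, as were all 24 of the highest and lowest bright genes. With limma, the genes at an unadjusted p under 0.05 were 814 as deposited, 525 without the time term, 342 over bright genes and 870 without a variance trend, with none at an adjusted p under 0.05. After cyclic loess limma called 4 genes at adjusted p = 0.0297 (Mcu, Cyp4a14, Scd1 and Gm20852), with 1120 unadjusted; the lowest adjusted p in the other settings was 0.368 to 0.998. Of the other values, for single genes and lists, 903 moved by less than the SD between the times or not at all. Another 73 moved by more. For a single gene at 0 h alone or 30 h alone this outcome was fixed in advance, because the mean of both times lies within that SD of each. The SD is also wider where a gene differs more between the times, so the count of 903 does not measure robustness. The labels carry no replicate numbers; the time term of the limma fit sets the arrays of a time against each other. Leaving out an array removes a time, as 0 h alone and 30 h alone do. Of the 341 recurring genes 207 were dim, among 9746 dim genes in all.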

Other observations

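A few lists outside the report's order had recurring or nearly recurring members; over all genes 24.3% were higher and 23.0% lower at both times. Hepatocyte transcription factors and nuclear receptors had medians of 0.11 at 0 h and -0.16 at 30 h, with Pparg, the lipid-storage nuclear receptor gene, at 4.58, 4.35, 3.83 and 3.78 and Cebpd at 4.81, 6.22, 5.63 and 6.64 in control 0 h, control 30 h, knockdown 0 h and knockdown 30 h liver. The zinc transporter gene Slc30a9 recurred as lower (-0.66 and -0.71) in a list of 25 genes of which 7 were lower and 3 higher at both times. The clock output genes Tef (-1.06 and -0.36) and Hlf (-0.35 and -0.59) were both lower, in a list of 18 with 6 lower and 3 higher. In the lysosome list Ctss, the cathepsin of antigen-presenting cells, read 5.14, 5.49, 5.97 and 5.84, while 8 of 39 genes were higher and 7 lower at both times. Among autophagy genes Atg2a differed by -0.52 and -1.09 and Atg14 by 0.42 and 0.51.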
